A study of Mus musculus with 17 samples.

Results

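The 4 simple epithelial keratin genes Krt7, Krt8, Krt18 and Krt19 and the 3 connexin genes Gjb2, Gjb5 and Gja1 were followed in mouse pluripotent cells with and without the homeobox gene Nanog. They are 7 of the 28670 genes in each expression table, and all 7 passed the filter on low counts. The genes were picked by name with their levels in these samples already known, above all the large difference of the keratins between WT cells of the 129/B6 and c57/b6 strains, so that difference is described here without a test. RNA was sequenced from 17 samples in 7 groups. In the 129/B6 (v6.5) strain there were 2 samples of each of 2 Nanog -/- induced pluripotent stem cell (iPSC) clones, G2 and G5, 2 of Nanog -/- embryonic stem cells (ESC), 2 of WT partially reprogrammed iPSC (piPSC, all from clone B1), 1 of WT iPSC and 2 of WT ESC. In the c57/b6 strain there were 2 samples of WT embryonic fibroblasts (MEF), 2 of WT iPSC and 2 of WT ESC.

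The labels give feeder cells and 2i + LIF medium for the stem cells and serum for the MEF, and reprogramming by retroviruses carrying Oct4, Sox2, Klf4 and in some cases c-Myc. Nanog -/- MEF for reprogramming came from embryos injected with the Nanog -/- ESC and were sorted by their GFP. The parental Nanog -/- ESC were obtained from another laboratory, so a difference between cell lines cannot be told apart from genotype. The 129/B6 iPSC, piPSC and Nanog -/- cells were at passage 6, the WT ESC of both strains and the c57/b6 iPSC at passages 10 to 15 and the MEF at passage 2, so passage cannot be told apart from genotype in the ESC comparison, nor from cell type where 129/B6 WT iPSC or piPSC are set against WT ESC. Every 129/B6 sample belongs to one numbered sample set of the labels and every c57/b6 sample to another, so strain and sample set cannot be told apart either.

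Keratins form the intermediate filaments of epithelial cells, and each filament pairs a type II chain with a type I chain. Krt7 and Krt8 are type II keratins and Krt18 and Krt19 are type I keratins of simple, one-layered epithelia. Krt8 and Krt18 are the first keratins made in the mouse embryo, where they mark the trophectoderm and later the extraembryonic endoderm. Connexins form the channels of gap junctions, through which ions and small molecules pass between neighbouring cells. Gja1 encodes Cx43, the most widespread connexin, Gjb2 encodes Cx26, and Gjb5 encodes a connexin of skin and placenta. Nanog is a transcription factor of the pluripotent state.

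The promoters of 4 members are shown. They are Krt8 and Krt18, partner keratins that lie near each other on chromosome 15, Krt7 of the same chromosome, and Gjb2, the connexin with the largest changes. Each is the 150 bases before the RefSeq start in build GRCm38.p6. Krt8 and Krt18 face away from each other with 23.9 kb and 2 predicted genes, Gm36026 and Gm41404, between them. Krt7 lies on chromosome 15, Krt19 on 11, Gjb2 on 14, Gjb5 on 4 and Gja1 on 10. Capitals mark 4 searched motifs on either strand.
Krt8 promoter, chr15:102004343-102004492, minus strand: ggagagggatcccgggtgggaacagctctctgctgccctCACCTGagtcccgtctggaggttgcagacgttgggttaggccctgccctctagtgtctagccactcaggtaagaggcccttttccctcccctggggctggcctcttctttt
Krt18 promoter, chr15:102028066-102028215, plus strand: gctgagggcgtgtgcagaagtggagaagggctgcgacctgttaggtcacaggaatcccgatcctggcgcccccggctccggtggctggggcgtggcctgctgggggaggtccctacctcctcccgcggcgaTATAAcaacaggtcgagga
Krt7 promoter, chr15:101412253-101412402, plus strand: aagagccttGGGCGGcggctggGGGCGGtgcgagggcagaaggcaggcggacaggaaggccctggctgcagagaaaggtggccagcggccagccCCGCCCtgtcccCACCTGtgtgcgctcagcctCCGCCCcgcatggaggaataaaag
Gjb2 promoter, chr14:57104703-57104852, minus strand: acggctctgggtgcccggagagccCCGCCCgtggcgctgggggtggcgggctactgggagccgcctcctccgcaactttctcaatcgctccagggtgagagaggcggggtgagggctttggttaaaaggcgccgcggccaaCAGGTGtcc

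The TATA motif TATAA stood in the Krt18 window and in 14.2% of the 32851 mouse windows of this length. The GC box GGGCGG stood in those of Krt7, 4 times, and Gjb2, once, and in 28.6% of all windows. The E-box CAGGTG stood in those of Krt8, Krt7 and Gjb2 and in 10.6% of all windows. The AP-1 motif TGANTCA stood in the Gja1 window, not printed, and in 4.24% of all windows, and no marked motif overlapped another. The Gjb5 window held none of the 4, and 6 of the 7 members had a window. These matches describe letters only.

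Levels are given as FPKM, the authors' fragment counts scaled to transcript length and library size, and changes as log2 differences of fragment counts from edgeR's quasi-likelihood test with Benjamini-Hochberg adjustment over 18077 genes, called at an adjusted p under 0.05. The libraries held 7795960 to 43501951 fragments on genes. Nanog itself measured 27.2 and 27.8 FPKM in Nanog -/- iPSC G2, 40.0 and 43.0 FPKM in G5 and 45.8 and 49.5 FPKM in Nanog -/- ESC, against 762 FPKM in 129/B6 WT iPSC and 568 and 574 FPKM in 129/B6 WT ESC. These are values over the whole gene, which do not show which part is deleted. Summed over 8 pluripotent cell markers, the Nanog -/- samples held 2569 to 4507 FPKM, the 129/B6 WT iPSC and ESC 6507 to 8998 FPKM and the MEF under 1 FPKM. The 8 markers include Nanog itself, and Dppa5a made up most of the sum in these stem cells. It held 6230 and 6872 FPKM in 129/B6 WT ESC, 4384 FPKM in 129/B6 WT iPSC and 1505 to 3376 FPKM in the Nanog -/- samples. In MEF, 10 of 10 fibroblast markers and 8 of 8 macrophage markers averaged at least 1 FPKM.

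**Figure D1:**
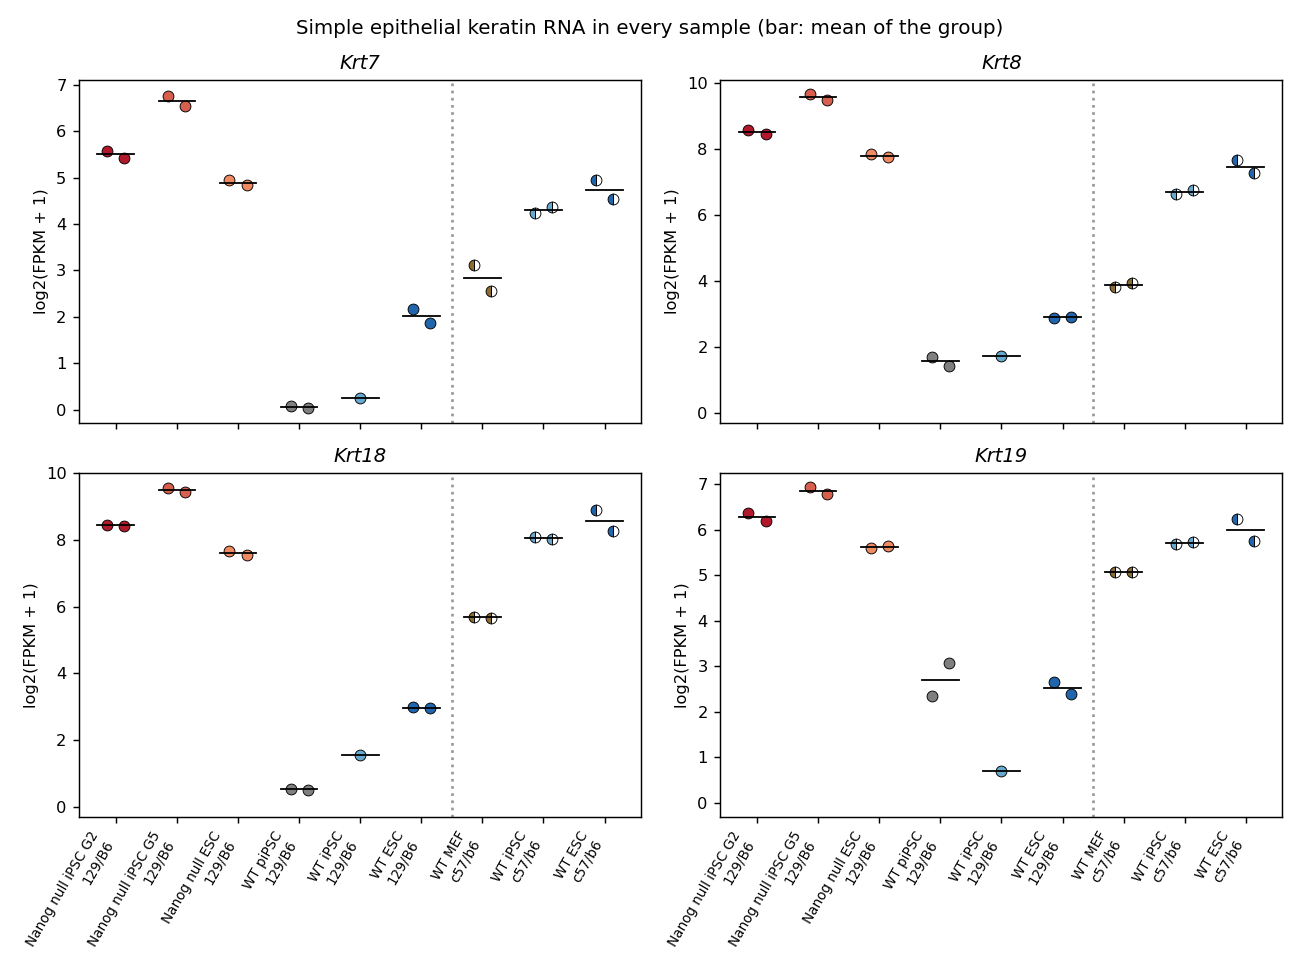
Level of each keratin in every sample as log2(FPKM + 1), with Nanog -/- groups (reds) left of WT groups; points are samples, half-filled for c57/b6, bars are group means, and the dotted line separates 129/B6 from c57/b6. In each panel the 6 Nanog -/- samples sit above the 5 WT samples of 129/B6, and the c57/b6 iPSC and ESC sit high.

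Within 129/B6, the keratins were high in Nanog -/- ESC and low in WT ESC. All 7 members were higher in Nanog -/- ESC than in WT ESC, in a comparison in which 61.9% of all genes were called, 32.8% higher and 29.1% lower. Krt8 measured 229 and 214 FPKM in Nanog -/- ESC, against 6.46 and 6.59 FPKM in WT ESC. This was a 33.9-fold difference of the means, and log2 5.11 ± 0.16 (SE) by edgeR with an adjusted p of 4.1e-14. Its partner Krt18 stood at 203 and 187 FPKM in Nanog -/- ESC, against 6.86 and 6.84 FPKM in WT ESC, a log2 change of 4.86 ± 0.17 (edgeR adjusted p = 8.9e-14). The groups did not overlap for either gene. Krt8 has a processed pseudogene in the annotation, so part of its reads may be shared.

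Krt19, a short type I keratin without a tail domain, held 47.5 and 48.7 FPKM in Nanog -/- ESC, against 5.31 and 4.27 FPKM in WT ESC, and rose by log2 3.39 ± 0.21 (edgeR adjusted p = 1.9e-10). Krt7, the type II keratin of ducts and glands, held 29.8 and 27.6 FPKM in Nanog -/- ESC, against 3.50 and 2.62 FPKM in WT ESC. Its rise, log2 2.92 ± 0.14 (edgeR adjusted p = 4.8e-12), was the smallest of the 4. In these bulk samples, more cells making a keratin and more RNA per cell cannot be told apart.

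The connexins rose as well. Gjb2 measured 22.2 and 21.9 FPKM in Nanog -/- ESC, against 0.412 and 0.312 FPKM in WT ESC, a log2 change of 5.93 ± 0.20 (edgeR adjusted p = 2.1e-13). The WT values rest on 28 and 17 fragments. Gja1, the main connexin of fibroblasts, measured 40.5 and 42.3 FPKM in Nanog -/- ESC, against 5.34 and 5.64 FPKM in WT ESC (log2 3.08 ± 0.11, edgeR adjusted p = 2.0e-13). Gjb5 measured 29.9 and 28.1 FPKM in Nanog -/- ESC and 5.34 and 5.70 FPKM in WT ESC (log2 2.42 ± 0.13, edgeR adjusted p = 3.2e-11). No connexin's samples overlapped between the groups, a description given without the share over all genes.

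Markers of other cells moved in the same comparison. The summed level of 10 fibroblast markers was 725 to 735 FPKM in Nanog -/- ESC and 173 to 180 FPKM in WT ESC, and 10 of 10 rose. Primitive endoderm markers summed to 100.1 to 101 FPKM in Nanog -/- ESC and 4.27 to 5.27 FPKM in WT ESC, and 10 of 10 rose, while trophoblast markers summed to 71.6 to 79.0 FPKM in Nanog -/- ESC and 39.1 to 40.0 FPKM in WT ESC, with 4 of 8 tested higher and 2 lower. The placental genes Tpbpa, in both groups, and Prl3d1, in WT ESC, were listed at 0. The part of these cells in the member levels was not tested.

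**Figure D2:**
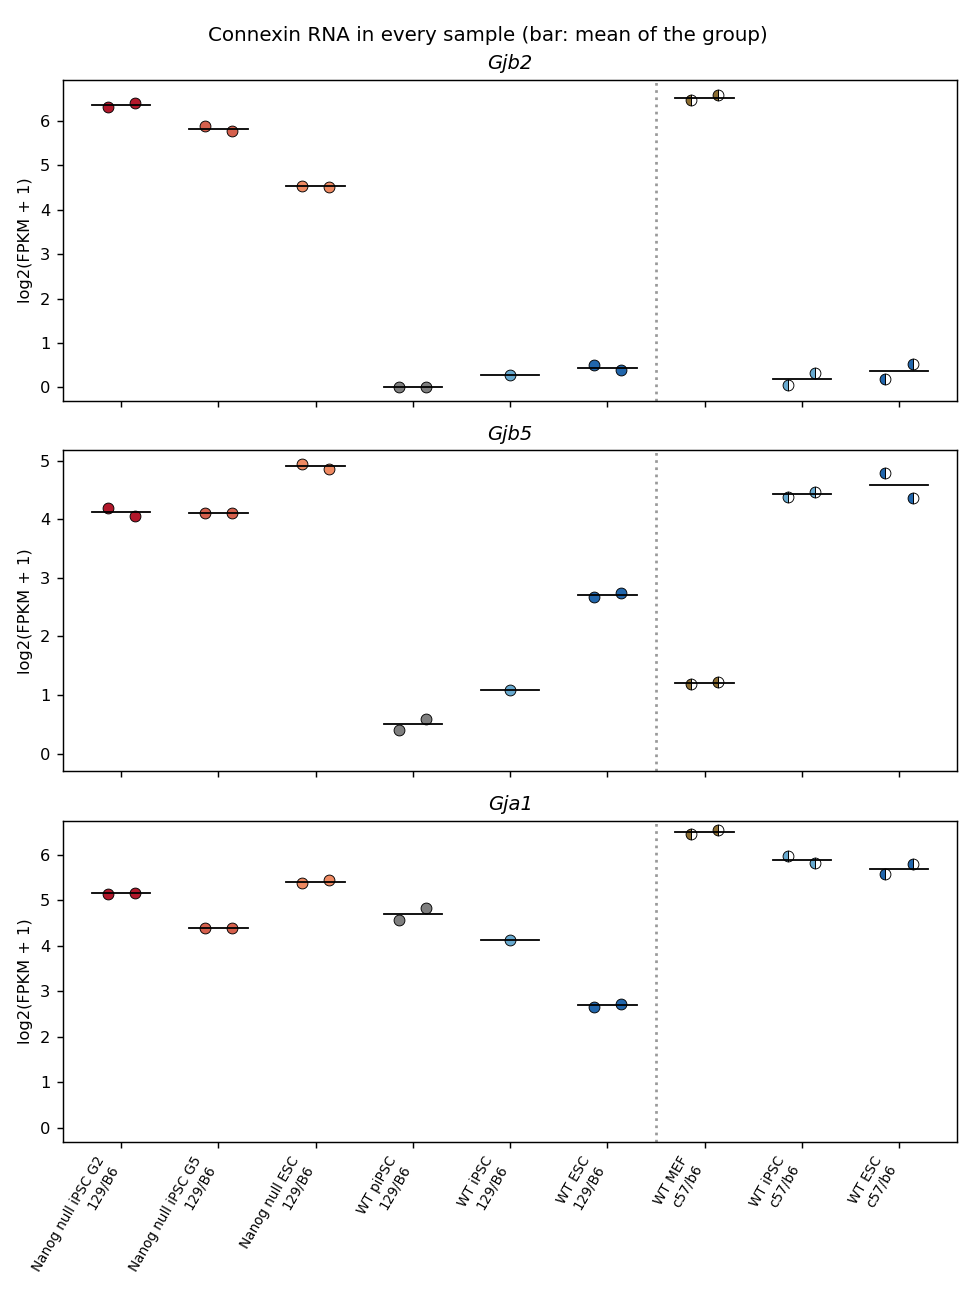
Level of each connexin in every sample as log2(FPKM + 1), with groups, colours and bars as for the keratins. Gjb2 is high in the 6 Nanog -/- samples and in MEF and under 0.5 FPKM in all 9 other samples, while Gjb5 is low in MEF and Gja1 is highest there.

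The same comparison in iPSC rested on 1 WT sample in 129/B6, and the spread between the clones G2 and G5 is not in its p-values. All 7 members were higher in Nanog -/- iPSC, taken as the mean of G2 and G5, than in WT iPSC, where 60.2% of all genes were called, 30.3% higher and 29.9% lower. Krt8 measured 378 and 348 FPKM in G2 and 813 and 711 FPKM in G5, against 2.30 FPKM in WT iPSC, and Krt18 measured 351 and 340 FPKM in G2 and 751 and 700 FPKM in G5, against 1.90 FPKM in WT iPSC. The log2 changes were 7.86 ± 0.25 for Krt8 and 8.06 ± 0.27 for Krt18 (edgeR adjusted p = 7.0e-14 and 8.8e-14). Krt7 was at 47.0 and 41.9 FPKM in G2 and 108 and 92.7 FPKM in G5, against 0.193 FPKM in WT iPSC, which is 20 fragments (log2 7.92 ± 0.26, edgeR adjusted p = 7.5e-14). Krt19 was at 82.0 and 72.2 FPKM in G2 and 121 and 110 FPKM in G5, against 0.633 FPKM in WT iPSC (log2 7.46 ± 0.38, edgeR adjusted p = 1.7e-11). Every Nanog -/- iPSC sample was above the WT sample by more than 100 times for these keratins. The Krt19 value in WT iPSC also rests on 20 fragments.

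Among the connexins, Gjb2 stood at 78.2 and 83.4 FPKM in G2 and 58.1 and 53.8 FPKM in G5, against 0.212 FPKM in WT iPSC (log2 8.32 ± 0.28, edgeR adjusted p = 3.8e-13). Gjb5 was at 17.2 and 15.6 FPKM in G2 and 16.2 FPKM in both G5 samples, against 1.12 FPKM in WT iPSC (log2 3.88 ± 0.21, edgeR adjusted p = 3.5e-11). Gja1 changed least, with 34.2 and 35.0 FPKM in G2 and 19.9 and 20.0 FPKM in G5, against 16.4 FPKM in WT iPSC (log2 0.62 ± 0.12, edgeR adjusted p = 0.0002). Its G5 mean was 1.22 times the WT value and its G2 mean 2.11 times. The Gjb2 value in WT iPSC rests on 15 fragments. Fibroblast markers summed to 1102 to 1173 FPKM in G2, 445 to 446 FPKM in G5 and 252 FPKM in WT iPSC, and 9 of 10 rose. Primitive endoderm markers summed to 79.8 to 90.7 FPKM in G2, 66.0 to 69.0 FPKM in G5 and 4.11 FPKM in WT iPSC, and 9 of 10 rose. Markers of stratified epithelium summed to 56.3 to 56.8 FPKM in G2, 59.5 to 64.0 FPKM in G5 and 14.6 FPKM in WT iPSC, with 5 of 8 higher and none lower. Trophoblast markers summed to 39.7 to 41.8 FPKM in G2, 37.8 to 45.7 FPKM in G5 and 22.6 FPKM in WT iPSC, with 5 of 8 tested higher and 1 lower. Of 8 pluripotent cell markers, which include the targeted gene Nanog itself, 6 were lower and 1 higher. The part of these cells in the member levels was not tested here either. Of the stratified epithelium markers, 3 averaged at least 1 FPKM in each of G2, G5 and WT iPSC.

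The difference between Nanog -/- and WT cells was not of one size in iPSC and ESC for any of the 7 members. In a test of the difference, added after the data were seen, 33.4% of all genes were called, 15.4% higher and 17.9% lower, and the members split into 6 higher and 1 lower. Gja1 was the lower one. This difference rests on the single WT iPSC sample, and the WT ESC in it were at a later passage than the other groups.

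**Figure D3:**
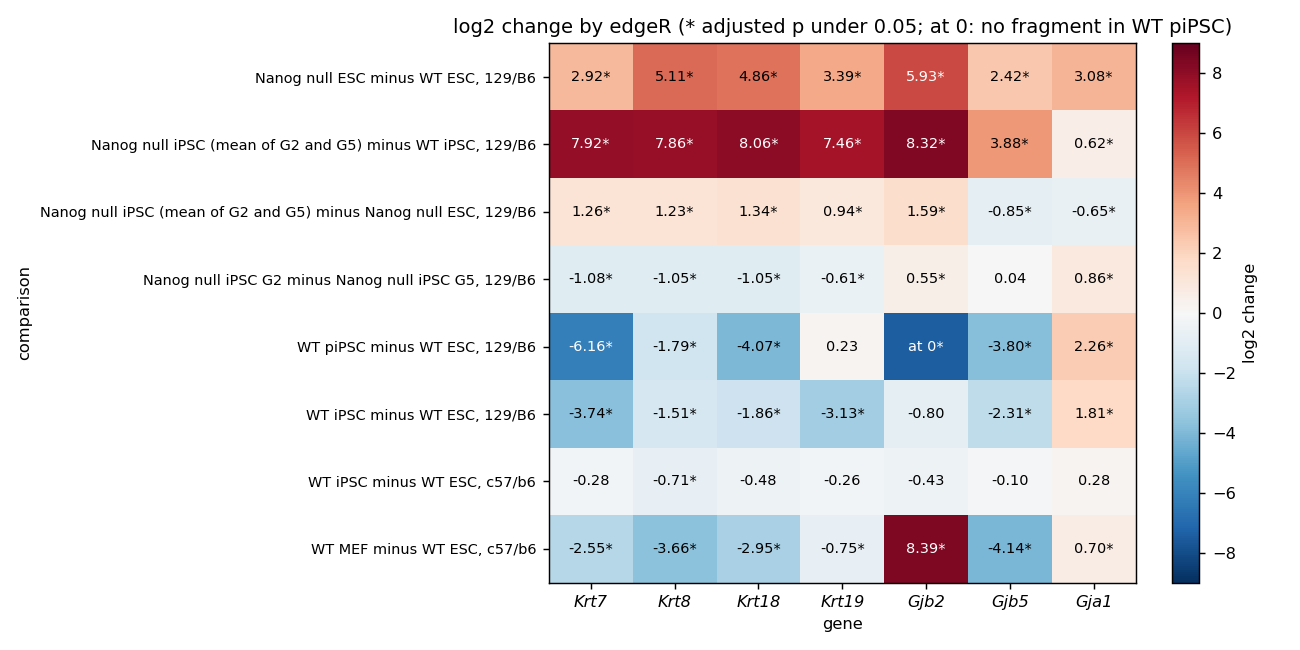
The log2 change of each member (columns) in 8 comparisons (rows) as fitted by edgeR, with red for higher and blue for lower in the group named first and a star for an adjusted p under 0.05. The keratin columns are red in the rows of Nanog -/- cells against WT cells and blue in the rows of G2 against G5, WT piPSC against WT ESC (other than Krt19) and MEF against ESC.

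Between the kinds of Nanog -/- cell, the keratins and Gjb2 were higher in the iPSC clones than in the ESC, and Gjb5 and Gja1 were lower. In this comparison 23.4% of all genes were called, 11.5% higher and 11.9% lower, and the members split into 5 higher and 2 lower. The keratin log2 changes were 1.34 ± 0.12 for Krt18, 1.26 ± 0.11 for Krt7, 1.23 ± 0.12 for Krt8 and 0.94 ± 0.16 for Krt19, with edgeR adjusted p-values from 1.6e-07 to 0.00024. Gjb2 rose by log2 1.59 ± 0.12 (edgeR adjusted p = 5.2e-08). Gjb5 fell by 0.85 ± 0.10 and Gja1 fell by 0.65 ± 0.08 on the log2 scale (edgeR adjusted p = 6.8e-06 and 2.0e-05). The 4 clone samples lay on 1 side of the 2 ESC samples for each of the 7 genes. The share of all genes doing so was not counted. Relative to the Nanog -/- ESC mean, Krt18 stood at 1.77 times in G2 and 3.72 times in G5. Gja1 stood at 0.836 and 0.482 times, and Gjb5 at 0.565 and 0.558 times. Each clone is 1 line, and the spread between clones is not in the p-values of this comparison. Of the markers, 6 of 10 for primitive endoderm were lower in the clones than in the ESC and none higher, 4 of 8 tested for trophoblast were lower and 3 higher, and 2 of 10 for fibroblasts were lower and 1 higher. The fibroblast sum averaged 1137 FPKM in G2 and 446 FPKM in G5, against 730.0 FPKM in Nanog -/- ESC. Their part in the member levels was not tested. All 7 calls held without Nanog -/- ESC replicate 1 or 2, while 2245 or 1852 genes were called in place of 4222.

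The clones G2 and G5, both made from Nanog -/- MEF, differed from each other. Krt7, Krt8, Krt18 and Krt19 were lower in G2, Gjb2 and Gja1 were higher in G2, and Gjb5 was not called. Over all genes 12.1% were called in this comparison, 6.78% higher and 5.27% lower. The log2 changes were -1.08 ± 0.12 for Krt7, -1.05 ± 0.13 for Krt8 and -1.05 ± 0.14 for Krt18 (edgeR adjusted p = 6.2e-06, 2.0e-05 and 3.4e-05). The keratin sum was 802 to 857 FPKM in G2, against 1614 to 1793 FPKM in G5. Gja1 rose by log2 0.86 ± 0.10 (edgeR adjusted p = 1.4e-05), and its samples did not overlap between clones.

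Gjb5 stood at log2 0.04 ± 0.12 between the clones (edgeR adjusted p = 0.90). The fall of Krt19, log2 -0.61 ± 0.17 (edgeR adjusted p = 0.025), was lost when any of the 4 clone samples was left out, with edgeR adjusted p-values of 0.073 to 0.21, and by limma (adjusted p = 0.11 and 0.18 at pseudocounts of 1 and 0.1), although the samples did not overlap. The rise of Gjb2, log2 0.55 ± 0.12 (edgeR adjusted p = 0.0064), was lost without G2 replicate 2 (edgeR adjusted p = 0.081) or G5 replicate 2 (0.11) and by limma at a pseudocount of 0.1 (adjusted p = 0.52). Leaving out any 1 of the 4 clone samples, G2 replicate 1 or 2 or G5 replicate 1 or 2, gave 1108 to 1132 called genes in place of 2179. Each clone is 1 line, so these p-values measure the spread between samples of a clone. Of the 10 fibroblast markers 9 rose in G2 relative to G5, to the sums given above, and their part in the connexin difference was not tested.

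**Figure D4:**
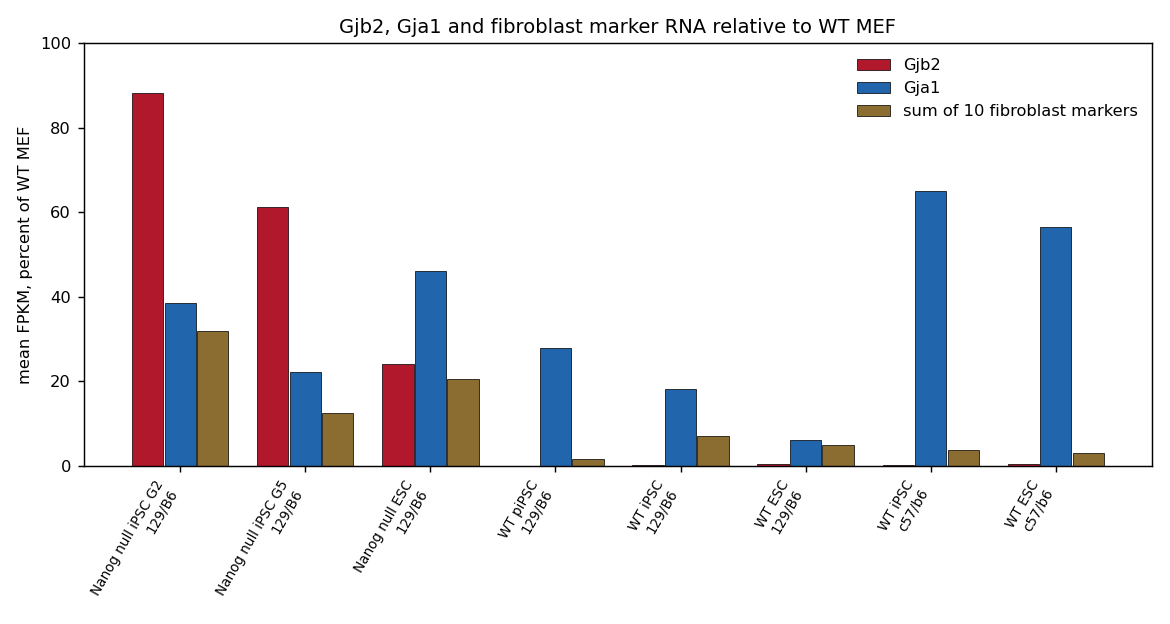
Mean FPKM of Gjb2, Gja1 and the sum of 10 fibroblast markers in each group as a percentage of the mean in MEF (vertical axis), with Nanog -/- groups at the left. Gjb2 stands at 88.3% of MEF in G2, 61.2% in G5 and 24.1% in Nanog -/- ESC and under 1% in every WT stem cell group.

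MEF, the fibroblasts of the series, give a level to set Gjb2 and the fibroblast markers against, across strains and sample sets. Gjb2 reached 88.3% of its MEF mean in G2, 61.2% in G5 and 24.1% in Nanog -/- ESC. The fibroblast marker sum reached 31.9% of its MEF mean in G2, 12.5% in G5 and 20.5% in Nanog -/- ESC. That sum is mostly collagen RNA, and the single markers ranged from 7.89 to 192% of their MEF means in G2, 5.80 to 63.7% in G5 and 9.59 to 57.9% in Nanog -/- ESC. Dcn, the gene of the matrix proteoglycan decorin, was the highest in each of these 3 groups and above Gjb2 in each. Of the 10 markers, 1 was above Gjb2 in G2, 1 in G5 and 3 in Nanog -/- ESC. For the keratins MEF were low: Krt8 measured 13.2 and 14.3 FPKM there, so that G2 held 26.3 times and G5 55.3 times the MEF mean.

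WT piPSC had less of 5 members and more of 1 than WT ESC of 129/B6. Over all genes 72.6% were called in this comparison, 31.5% higher and 41.1% lower, with a median log2 change of -0.17. Krt7 measured 0.0523 and 0.0166 FPKM in piPSC, against 3.50 and 2.62 FPKM in WT ESC, from 6 and 2 fragments in piPSC (log2 -6.16 ± 0.29, edgeR adjusted p = 1.1e-12). Krt18 measured 0.435 and 0.419 FPKM in piPSC, against 6.86 and 6.84 FPKM in WT ESC (log2 -4.07 ± 0.25, edgeR adjusted p = 4.6e-11). Its partner Krt8 changed less, with 2.27 and 1.70 FPKM in piPSC, against 6.46 and 6.59 FPKM in WT ESC (log2 -1.79 ± 0.17, edgeR adjusted p = 2.7e-08). The groups were apart for each of these 3 keratins.

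Krt19 did not follow them. It was at 4.10 and 7.40 FPKM in piPSC, against 5.31 and 4.27 FPKM in WT ESC, with overlapping samples (log2 0.23 ± 0.23, edgeR adjusted p = 0.37). It was called higher without piPSC replicate 1 (log2 0.62, edgeR adjusted p = 0.009) and stood at log2 -0.31 without piPSC replicate 2 (0.21). Gjb2 had no fragment in either piPSC sample, against 28 and 17 in the WT ESC samples. Counting 3 fragments over the group as the limit that 0 allows, Gjb2 was at least 19.8-fold lower in piPSC for equal library size, with the WT ESC count taken as measured. With the lower 95% Poisson limit of that count, the bound was 14.4-fold, and both cover counting error only. Gjb5 fell to 0.325 and 0.507 FPKM in piPSC, against 5.34 and 5.70 FPKM in WT ESC (log2 -3.80 ± 0.21, edgeR adjusted p = 8.2e-12). Gja1 went the other way, with 22.7 and 27.3 FPKM in piPSC, against 5.34 and 5.64 FPKM in WT ESC (log2 2.26 ± 0.11, edgeR adjusted p = 2.1e-12).

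In piPSC the markers of stratified epithelium summed to 488 to 555 FPKM, against 32.1 to 32.5 FPKM in WT ESC. Of these 8 markers, 5 were higher and 1 lower, and 4 averaged at least 1 FPKM in piPSC. Lgals7 (363 and 309 FPKM) and Perp (163 and 150 FPKM) made up most of the piPSC sums. Krt14 reached at most 0.456 FPKM there, and Krt5, Krt15 and Trp63 less. The fibroblast marker sum averaged 52.7 FPKM in piPSC, against 176 FPKM in WT ESC, and 7 of 10 were lower and 2 higher. Of 8 pluripotent cell markers, 7 were lower, with a median log2 change of -7.19, and 1 was higher. That one was Pou5f1, which encodes Oct4, a factor the retroviruses carried, at 6975 and 7303 FPKM in piPSC, against 757 and 760 FPKM in WT ESC. The part of these cells and states in the member levels was not tested. All piPSC came from clone B1, so the spread covers samples of 1 clone.

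The WT iPSC sample of 129/B6 lay under the WT ESC for all 4 keratins. Over all genes 32.7% were called, 17.5% higher and 15.2% lower, and the members split into 1 higher, 5 lower and 1 not called. The log2 changes were -3.74 ± 0.28 for Krt7, -3.13 ± 0.44 for Krt19, -1.86 ± 0.25 for Krt18, -1.51 ± 0.21 for Krt8 and -2.31 ± 0.23 for Gjb5, with edgeR adjusted p-values of 2.1e-08 to 3.2e-05. Gja1 rose by log2 1.81 ± 0.13 (edgeR adjusted p = 7.6e-09). Gjb2 stood at log2 -0.80 ± 0.45 (edgeR adjusted p = 0.19). The single iPSC sample has no replicate, and the fit takes its spread to be that of the other groups.

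In c57/b6, with 2 samples of each group, few genes passed the test between WT iPSC and WT ESC. Over all genes 0.254% were called, 0.183% higher and 0.0719% lower, and 2168 genes passed an unadjusted p of 0.05. Of the members, 1 was lower: Krt8 measured 98.4 and 106 FPKM in iPSC, against 200.3 and 153 FPKM in ESC (log2 -0.71 ± 0.13, edgeR adjusted p = 0.025). That call was lost without iPSC replicate 2 (edgeR adjusted p = 0.20) or 3 (0.17) and in a fit of the c57/b6 samples alone (0.18). Krt18 measured 271 and 263 FPKM in iPSC and 472 and 308 FPKM in ESC (log2 -0.48 ± 0.14, edgeR adjusted p = 0.17). Its samples did not overlap either, and it was called lower by DESeq2 (adjusted p = 0.043). The same call came without a filter on low counts (edgeR adjusted p = 0.025), a setting that makes p-values far smaller and needs caution. Without ESC replicate 4 its change was log2 -0.75. Without ESC replicate 3 or 4, 3454 or 238 genes were called in place of 46, and without iPSC replicate 2 or 3, 22 or 11. Gja1 stood at log2 0.28 ± 0.10 (edgeR adjusted p = 0.29), and was called higher without ESC replicate 4 (0.039).

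MEF, the starting cell type of reprogramming, differed from c57/b6 WT ESC in all 7 members. Of all genes 75.8% were called in this comparison, 37.5% higher and 38.3% lower, and the members split into 2 higher and 5 lower. Gjb2 was at 87.2 and 95.7 FPKM in MEF, against 0.145 and 0.437 FPKM in ESC (log2 8.39 ± 0.25, edgeR adjusted p = 8.2e-15). Gja1 was at 87.1 and 92.6 FPKM in MEF, against 46.8 and 54.8 FPKM in ESC (log2 0.70 ± 0.10, edgeR adjusted p = 5.6e-06). Gjb5 fell, with 1.28 and 1.33 FPKM in MEF, against 26.7 and 19.6 FPKM in ESC (log2 -4.14 ± 0.19, edgeR adjusted p = 6.8e-13). Each connexin's samples were apart, again without the share over all genes.

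The keratins fell in MEF, most for the pair Krt8 and Krt18, which changed by log2 -3.66 ± 0.15 and -2.95 ± 0.15 (edgeR adjusted p = 1.6e-13 and 2.4e-12). Krt18 kept 51.1 and 49.3 FPKM in MEF, against 472 and 308 FPKM in ESC. Krt7 was at 7.71 and 4.92 FPKM in MEF, against 30.1 and 22.1 FPKM in ESC (log2 -2.55 ± 0.15, edgeR adjusted p = 1.3e-11). Krt19 fell by 0.75 ± 0.19 (edgeR adjusted p = 0.0016), with 32.9 and 32.6 FPKM in MEF, against 74.9 and 53.3 FPKM in ESC. Macrophage markers summed to 530 to 533 FPKM in MEF, against 67.3 to 91.5 FPKM in ESC, and 7 of 8 were higher. Their part in the member levels was not tested.

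Across strains the WT stem cells differed widely in level. On the log2(FPKM + 1) scale, 129/B6 minus c57/b6 was -5.61 in ESC and -6.53 in iPSC for Krt18, and -4.55 and -4.97 for Krt8. The differences were -3.48 and -5.01 for Krt19, and -2.73 and -4.05 for Krt7. Every keratin was thus lower in both kinds of 129/B6 cell. The iPSC differences rest on 1 sample of 129/B6, at passage 6, against passages 10 to 15 in c57/b6. Passage thus cannot be told apart from strain in iPSC. The added 1 shrinks the differences of the lowest genes: with 0.1 in its place, the iPSC difference was -6.01 for Krt7, -6.14 for Krt19, -5.41 for Krt8 and -7.06 for Krt18, so that Krt8 had the smallest difference of the 4 in place of Krt7. Gjb5 differed by -1.87 in ESC and -3.34 in iPSC, and Gja1 by -2.99 and -1.77. Gjb2 was under 0.5 FPKM in all of these samples, too low to compare between the strains: its differences were 0.09 and 0.08, and 0.34 and 0.47 with 0.1 added, where the pooled SDs were 0.59 and 0.94. Taken as means, WT ESC held 6.52 FPKM of Krt8 in 129/B6 and 177 FPKM in c57/b6.

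The order of the groups by level follows from these values. Krt8 ran from Nanog -/- iPSC G5 (762 FPKM) through G2 (363), Nanog -/- ESC (221), c57/b6 WT ESC (177) and iPSC (102), MEF (13.8), 129/B6 WT ESC (6.52) and iPSC (2.30) to piPSC (1.98), with no neighbours overlapping. Krt18 had the same order except that c57/b6 WT ESC and iPSC moved up, WT ESC to second place, where its samples overlapped those of G2. For Krt7, Nanog -/- ESC and c57/b6 WT ESC overlapped. For Krt19, G2 overlapped c57/b6 WT ESC, and piPSC overlapped 129/B6 WT ESC. Gjb2 ran from MEF through G2, G5 and Nanog -/- ESC, then to the WT ESC and iPSC of both strains, whose neighbours overlapped. Gjb5 was highest in Nanog -/- ESC, with the c57/b6 WT ESC and iPSC overlapping next and G2 and G5 overlapping after them. Gja1 ran from MEF through c57/b6 iPSC and ESC and Nanog -/- ESC to 129/B6 WT ESC, with no overlap between neighbours.

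**Figure D5:**
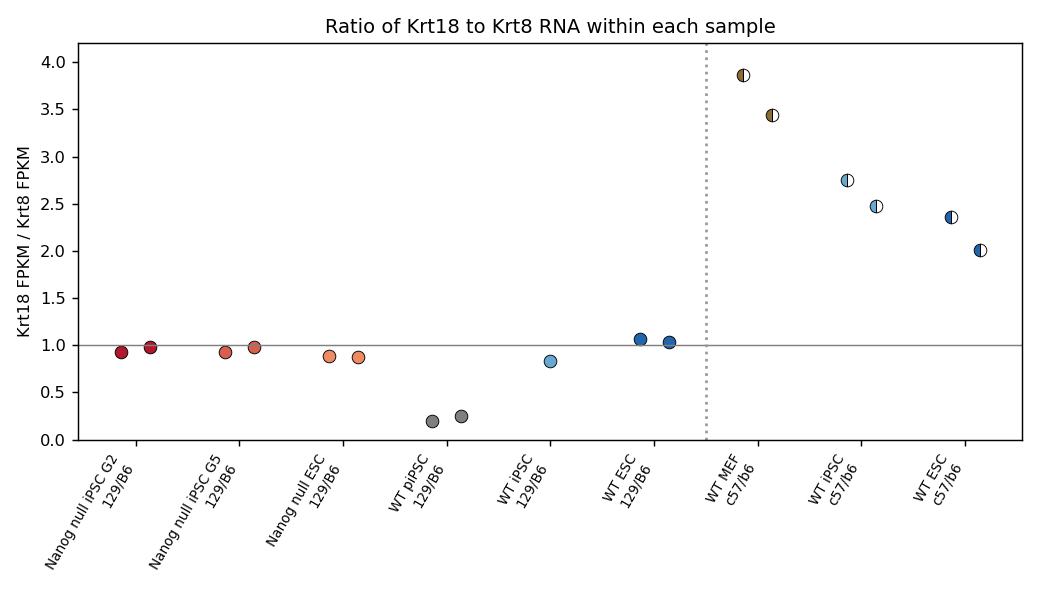
Ratio of Krt18 FPKM to Krt8 FPKM in each sample (vertical axis), with groups in the order of the keratin plot and a line at 1. Values lie between 0.828 and 1.06 in 129/B6 samples other than piPSC, at 0.192 and 0.246 in piPSC, and at 2.01 or more in all c57/b6 samples.

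The proportion of the 2 partner keratins was steady within the Nanog -/- cells although their level was not. Krt18 per Krt8, each per length, was 0.929 and 0.977 in G2, 0.924 and 0.984 in G5 and 0.875 and 0.887 in Nanog -/- ESC, against 0.828 in 129/B6 WT iPSC and 1.06 and 1.04 in 129/B6 WT ESC. Over these samples the sum of the 4 keratins ran from 5.03 to 1793 FPKM. In c57/b6 the ratio was 3.87 and 3.44 in MEF, 2.75 and 2.48 in WT iPSC and 2.36 and 2.01 in WT ESC. The piPSC had the lowest ratios, 0.192 and 0.246, from only 18 and 17 fragments of Krt18 and 125 and 92 of Krt8. The ratio was looked at after the levels were known and is given without a test, and part of it can come from reads that Krt8 shares with its pseudogene.

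Across all 17 samples the keratins varied together, with Pearson r of log2(FPKM + 1) from 0.92 to 0.98 among the 4. Gjb5 had r of 0.74 to 0.88 with them, Gjb2 0.50 to 0.58 and Gja1 0.28 to 0.55. Gjb2 and Gjb5 had an r of 0.16. These are descriptions over samples that share groups, strain and sample set.

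The same measure picked out the genes most like each member among 11915. Ctsl, a lysosomal protease, had an r of 0.98 with Krt7 and with Krt8, and Cstb, a cysteine protease inhibitor, 0.99 with Krt18 and 0.97 with Krt7. Ctsl measured 821 to 1074 FPKM in the Nanog -/- iPSC, against 213 FPKM in 129/B6 WT iPSC. Optn, an autophagy receptor, followed Krt8 and Krt7 (0.98 and 0.96), Nostrin followed Krt8 and Slc31a2 followed Krt18. Krt19 was most like Pgrmc1, Sat1 and Cstb. Gjb2 was most like Gab2, Tollip and Rdh10, Gjb5 like D330028D13Rik, the metallothionein gene Mt1 and AU015836, and Gja1 like Ecscr, Pfn2 and Twist1. Over the 129/B6 samples alone, 1 of these 21 places was kept, Cstb for Krt18.

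Other genes of the keratin network moved in part. The counts of the lists stand beside the shares called over all genes, which were 32.8% higher and 29.1% lower in the ESC comparison of Nanog -/- with WT, 30.3% and 29.9% in that of iPSC, 31.5% and 41.1% in piPSC and 6.78% and 5.27% in G2 against G5. Of 12 tested desmosome and keratin linker genes, 8 were higher and 2 lower in Nanog -/- iPSC than in WT iPSC of 129/B6, a median log2 change of 1.33 beside 0.01 over all genes. Dsc2, a desmosomal cadherin, rose by log2 3.93 ± 0.24 (edgeR adjusted p = 2.4e-10), and Dsp, the plakin that ties keratins to desmosomes, by 3.08 ± 0.22 (edgeR adjusted p = 1.9e-09). In Nanog -/- ESC against WT ESC, 5 were higher and 4 lower, with a median of 0.14 beside 0.05. Dsc2 rose there by log2 2.28 ± 0.19 (edgeR adjusted p = 6.9e-09), as did the cytolinker Plec, by 1.79 ± 0.12 (edgeR adjusted p = 5.7e-10). Dsp did not rise there, with 7.68 and 7.57 FPKM in Nanog -/- ESC and 12.2 and 11.2 FPKM in WT ESC. Its rise in iPSC rests on the 1 WT iPSC sample, at 1.28 FPKM, against 8.92 and 8.74 FPKM in G2 and 14.5 and 12.7 FPKM in G5. In G2 against G5, 3 fell and none rose: Pkp3, Dsp and Pkp2. In piPSC against WT ESC, 10 of 12 rose, with Pkp1, a plakophilin of stratified epithelia, at log2 9.09 ± 0.24 (edgeR adjusted p = 4.3e-16), and Pkp2 fell by 4.79 ± 0.15 on the log2 scale (edgeR adjusted p = 3.35e-15).

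Of 13 epithelial transcription factors, 7 were higher and none lower in Nanog -/- ESC than in WT ESC, and 10 were higher and 1 lower in Nanog -/- iPSC than in WT iPSC, with medians of log2 0.80 and 1.41. Grhl2, a regulator of epithelial junction genes, rose by log2 3.14 ± 0.21 in the ESC comparison and 2.38 ± 0.24 in the iPSC comparison (edgeR adjusted p = 4.7e-10 and 1.0e-07). Elf3, an epithelial ETS factor, rose by 0.80 ± 0.15 and 1.39 ± 0.18 (edgeR adjusted p = 0.00016 and 3.8e-06). In piPSC, Ehf rose by log2 7.27 ± 0.26 (edgeR adjusted p = 6.4e-14) while Elf3 and Klf5 fell.

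The other connexins showed no common direction. Of 15, 8 were expressed enough to be tested, and in Nanog -/- ESC against WT ESC 2 were higher and 4 lower. Gjc1, a connexin of the heart conduction system, averaged 18.9 FPKM in Nanog -/- ESC and 35.2 FPKM in WT ESC (log2 -0.93 ± 0.09, edgeR adjusted p = 1.0e-07). In Nanog -/- iPSC against WT iPSC, 4 were higher and 3 lower. In piPSC 2 rose and 5 fell.

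Of 9 tested pannexins and gap junction partners, 5 were higher and 1 lower in Nanog -/- ESC than in WT ESC. Cdh2, or N-cadherin, rose by log2 3.01 ± 0.14 (edgeR adjusted p = 3.7e-12), and Cdh1, or E-cadherin, the cadherin of epithelia and pluripotent cells, fell by 1.20 ± 0.12 on the log2 scale (edgeR adjusted p = 9.2e-08). The fall of Cdh1 was not seen in iPSC, with 86.3 and 83.2 FPKM in G2, 83.2 and 78.8 FPKM in G5 and 71.6 FPKM in WT iPSC. Cdh2 stood at 5.85 and 6.15 FPKM in G2 and 3.64 and 3.67 FPKM in G5, against 3.98 FPKM in WT iPSC. Of 10 other intermediate filament genes, 4 were higher and 5 lower in the ESC comparison, beside 32.8% and 29.1% of all genes. The lamin gene Lmna stood at log2 2.77 ± 0.14 and the mesenchymal filament gene Vim at 2.24 ± 0.19 (edgeR adjusted p = 7.4e-12 and 1.2e-08). Of 5 other simple and embryonic keratins, 2 were higher and 1 lower there. That one was Krt42, at log2 -2.63 ± 0.23 (edgeR adjusted p = 3.8e-08). Of 10 tested keratins of stratified epithelia, 4 were higher and 1 lower in Nanog -/- ESC than in WT ESC, and 0 were higher and 4 lower in G2 than in G5. In piPSC 4 of these 10 rose and none fell. These stratified keratins were at low levels in all of these comparisons. Their highest value was 1.60 FPKM in the ESC comparison, for Krt17 in WT ESC. It was 2.28 FPKM in the clones, for Krt14 in G5, and 3.07 FPKM in piPSC, for Krt13. The simple keratin Krt20 rose in piPSC by log2 4.58 ± 0.24 (edgeR adjusted p = 6.1e-12).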

How the data were processed

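RNA of 17 samples was sequenced from libraries made with the TruSeq RNA kit v2 from total RNA, per the labels' protocols. Reads were aligned with TopHat2 2.0.7 and Bowtie2 2.0.5 and quantified with Cuffdiff 2.1.1, per the submitters' processing notes, which name mm10 and NCBIM37 with no role. The authors deposited per sample a table of estimated counts (fragments per gene) and FPKM. Of the count values 97.5 to 98.8% were whole within 0.01.

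The deposited fragments were rounded and fitted with edgeR 4.0.16 (R 4.3.3, TMM, quasi-likelihood) in 1 model of 9 cells (group by strain, 8 residual degrees of freedom), on 18077 genes kept by its expression filter. 19 genes with a failed status were left out. Contrasts stayed within a strain. SE is the log2 change over the square root of F. The procedure was run on simulated counts in which 200 genes differed between Nanog -/- ESC and WT ESC. Far more genes were called in the data, so calls under such broad change were not examined. FPKM served as levels, and limma 3.58.1 and DESeq2 1.42.0 as alternatives.

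The members and lists were chosen with earlier results of these data known. Named genes are the 7 members, the 3 genes most like each over the 17 samples with a mean of at least 5 FPKM in a group, and up to 4 called genes per list with the largest change and at least 5 FPKM in a group compared. Of 132 list genes 1, Eppk1, had no match. Sequences are from RefSeq. P-values measure the spread between samples of a group, and counting limits cover counting error only. Where samples are said not to overlap or to lie apart, the share of all genes doing so was not counted. The values of 1 listed gene are not reported here.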

Additional observations from a re-analysis of the deposited data

Results flagged for a closer look

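The difference between Nanog -/- and WT cells of 129/B6 was not the same in iPSC and ESC for any of the 7 members, by an interaction in the edgeR fit that was added after the data were seen. In this interaction 33.4% of all genes were called. On the log2 scale the difference in iPSC less that in ESC was 5.00 ± 0.30 for Krt7, 4.07 ± 0.46 for Krt19, 3.20 ± 0.27 for Krt18 and 2.75 ± 0.24 for Krt8, with edgeR adjusted p-values of 1.7e-09 to 2.6e-06. It was 2.39 ± 0.45 for Gjb2 (edgeR adjusted p = 0.00062) and 1.46 ± 0.25 for Gjb5 (0.00023). Gja1 went the other way, at -2.46 ± 0.15 (edgeR adjusted p = 2.8e-09). The interaction rests on 1 WT iPSC sample, whose keratin sum was 5.03 FPKM, against 20.3 to 22.1 FPKM in WT ESC. Cell line and passage cannot be told apart from genotype in it.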

How the results depend on the processing

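Of 406 values of single members under other settings (DESeq2, RLE factors, limma with a pseudocount of 1 or 0.1, no filter, same sample set only, replicate block), 400 kept direction and call, 4 lost the call, 2 gained it and none reversed. Of 280 values with 1 sample left out, 263 were kept, 8 lost the call, 3 gained it and 6 changed sign. The sign changes were all of uncalled values. They were Gjb5 in G2 against G5 (log2 -0.048 to 0.11, below 0 without G2 replicate 1), Krt19 in piPSC (-0.31 to 0.62, below 0 without piPSC replicate 2), and, in c57/b6 iPSC against ESC, Krt19 (-0.47 to 0.0081) and Gjb5 (-0.29 to 0.17), above 0 without ESC replicate 3, and Gjb2 (-2.61 to 0.49), above 0 without ESC replicate 4 or iPSC replicate 2. The causes were not tested. Without a filter on low counts, edgeR's p-values became far smaller, so calls under that setting need caution.

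Counts of called genes moved as follows. Nanog -/- iPSC against Nanog -/- ESC gave 4222 genes, and 2771 or 2172 with limma at a pseudocount of 1 or 0.1. G2 against G5 gave 2179, and 946 with limma at 0.1, 3474 within the same sample set and 3546 with the replicate block. WT iPSC against ESC in 129/B6 gave 5905, and 3627 with limma at 0.1, and the added interaction 6034 and 3839. WT iPSC against ESC in c57/b6 gave 46, and 212 with DESeq2, 120 with limma at 1, 349 without a filter and 3 within the same sample set, with 1 member called, 2, 1, 2 and 0 in that order. Of the 21 genes most like a member, 1 was kept in 129/B6 alone.

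Leaving out 1 sample gave 9293 to 9766 genes for Nanog -/- ESC, 10128 to 10347 for Nanog -/- iPSC against WT, 1852 to 3378 for Nanog -/- iPSC against ESC and 1108 to 1132 for G2 against G5, with 4 to 5 members. It gave 11716 to 12386 for piPSC, with 6 to 7 members, 4175 to 4323 for 129/B6 WT iPSC, 11 to 3454 for c57/b6 WT iPSC, with 0 to 3 members, 12520 to 13456 for MEF and 4424 to 5377 for the interaction. In the other comparisons all 7 members, or 6 for 129/B6 WT iPSC, stayed called. The only 129/B6 WT iPSC sample cannot be left out. Replicate numbers did not pair the samples: deviations of same-numbered samples correlated at -0.06 to 0.10 over 10 pairs of groups. The strain differences kept their sign, 12 of 14 below 0, at a pseudocount of 0.1 and in TMM-scaled counts.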
